A study of Homo sapiens with 6 samples.

Results

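The *APOBEC3* cytidine deaminases were examined in MDA-MB-453 cells after *DUSP6* siRNA. The members are the genes of the family by symbol: *APOBEC3A*, *APOBEC3B*, *APOBEC3C*, *APOBEC3D*, *APOBEC3F*, *APOBEC3G* and *APOBEC3H*. Of these 7 genes, 6 were analysed among the 22807 genes of the deposited table, and *APOBEC3H* was not analysed here. MDA-MB-453 is an established HER2+ breast cancer cell line, and all 6 libraries came from it, grown in RPMI with fetal bovine serum. Per the labels, 3 libraries carried the *DUSP6* knockdown and 3 were scrambled controls labelled wild type. The study used 3 different siRNAs in each group, delivered by lipid transfection, so the knockdown is transient and in a single line. The siRNA of each library is not given in the sources used here, and neither is whether the libraries came from separate cultures, so p-values measure only the spread between these libraries.

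APOBEC3 enzymes remove an amino group from cytosine in single-stranded DNA and turn it into uracil. They restrict retroviruses and mobile elements, and in tumors *APOBEC3A* and *APOBEC3B* are known as sources of mutations. *APOBEC3B* follows the cell cycle through E2F, RB family and MuvB complexes and responds to NF-kB, while most other members are known as interferon-inducible genes, above all in leukocytes. The comparison asked how these genes stood in cells in which cell cycle genes were lower and interferon-stimulated genes higher after *DUSP6* siRNA.

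No member of the family was called higher after *DUSP6* siRNA. Of the 4 members abundant enough to test, *APOBEC3A*, *APOBEC3B* and *APOBEC3F* were not called, and *APOBEC3D* was called lower, which makes 1 of 4 where 24.7% of all genes tested were called lower and 19.7% higher. The call of *APOBEC3D* was kept in only 6 of the 14 alternative fits that tested it. By the listed values, *APOBEC3B* held most of the summed level of the 6 members analysed in both groups, and *APOBEC3C* and *APOBEC3G* were close to 0. Whether the count of *APOBEC3C* reflects the level of its RNA was not tested. In the same libraries all 12 interferon-stimulated genes chosen for comparison were higher and 14 of 18 G2/M genes were lower.

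Each library held between 45546981 and 85729785 recovered reads, and 1 read was worth a normalized value between 0.0121 and 0.0202. The normalized value is the number of reads of a gene relative to a library size scaled by the trimmed mean of M-values (TMM). Values of a group are listed in the order of replicates 1 to 3, with the scrambled siRNA libraries as controls and the *DUSP6* siRNA libraries as knockdown. *DUSP6* itself was 209, 110 and 114 across the controls, against 39.4, 24.5 and 35.2 after knockdown, -2.05 ± 0.25 (SE) on the log2 scale by limma (adjusted p = 3.09e-04). Another annotated gene covers 28.6% of the exon bases of *DUSP6*, so its value is uncertain. Genes listed here as epithelial or luminal markers were abundant, with a mean value of 268 for *EPCAM* and 984 for *ERBB2* in the controls. They also moved with the groups: 5 of 7 were called lower and 1 higher, and their summed value was 3352 to 4405 in the controls and 2456 to 2600 after knockdown. Of 4 fibroblast markers, *COL1A1* rose from a mean of 92.2 to 173, while *COL1A2* and *COL3A1* were near 0. The part of these shifts in the results on the *APOBEC3* genes was not tested, and fewer cells of a kind cannot be told apart from less RNA per cell. Markers of leukocytes, the cells in which several APOBEC3 genes are best known, were near 0: their summed value over 9 genes was between 0.556 and 0.818 in the controls and between 0.896 and 1.07 after knockdown, and none of the 15 listed genes passed the filter of a mean value of 1. The summed value of 3 endothelial markers was between 0.208 and 0.402. *PTPRC*, the pan-leukocyte phosphatase, had a mean value of 0.0170 with scrambled siRNA and 0.0546 with *DUSP6* siRNA.

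The 7 genes lie side by side on chromosome 22 of hg38. In RefSeq coordinates of GRCh38.p14, *APOBEC3A* (Entrez gene 200315) runs from 38957609 to 38963184, *APOBEC3B* (9582) from 38982347 to 38992779, *APOBEC3C* (27350) from 39014257 to 39020352 and *APOBEC3D* (140564) from 39021127 to 39033277. They are followed by *APOBEC3F* (200316) from 39040864 to 39055972, *APOBEC3G* (60489) from 39077005 to 39087743 and *APOBEC3H* (164668) from 39097244 to 39104067, all on the plus strand. *APOBEC3A*, *APOBEC3C* and *APOBEC3H* encode a single zinc-binding deaminase domain and the other members a pair of them, and the genes arose by duplication, so they share sequence. Of the distinct 75-base stretches in the annotated transcripts of *APOBEC3B*, 20.0% also occur in another member, most of them in *APOBEC3A* (11.1%). The share was 12.2% for *APOBEC3A*, 11.04% for *APOBEC3D*, 8.78% for *APOBEC3F*, 4.47% for *APOBEC3G* and 0.27% for *APOBEC3C*. Reads from such stretches could have been lost or split between members.

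Of the 7 members, 1 matched an entry in the RefSeq promoter table, *APOBEC3H*. Its promoter, 250 bases before to 50 after the start, is shown beside that of *IFIT1*, an antiviral RNA-binding protein whose gene rose in these libraries. Capitals mark GAAA followed, after any pair of bases, by a further GAAA, on either strand. These letters form the core of the interferon-stimulated response element. The *APOBEC3H* sequence is chr22:39096994-39097293 and the *IFIT1* sequence chr10:89392373-89392672, both on the plus strand of GRCh38.p14.
APOBEC3H: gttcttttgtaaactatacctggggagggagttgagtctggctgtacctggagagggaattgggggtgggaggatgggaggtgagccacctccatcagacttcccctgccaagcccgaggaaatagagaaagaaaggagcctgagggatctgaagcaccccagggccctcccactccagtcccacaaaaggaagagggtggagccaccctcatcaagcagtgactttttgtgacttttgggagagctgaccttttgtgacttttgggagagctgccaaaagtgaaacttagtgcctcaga
IFIT1: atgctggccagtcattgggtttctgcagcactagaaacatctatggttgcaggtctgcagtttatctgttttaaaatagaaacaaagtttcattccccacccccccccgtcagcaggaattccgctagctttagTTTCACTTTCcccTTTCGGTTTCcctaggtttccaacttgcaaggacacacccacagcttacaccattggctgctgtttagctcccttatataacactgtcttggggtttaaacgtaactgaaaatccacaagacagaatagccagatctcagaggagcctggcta
The letters occur at 2 places in the *IFIT1* promoter and at 0 places in that of *APOBEC3H*. Among all 35116 promoters in the table, 3.57% hold them, against 10 of the 13 promoters listed for 9 of the 12 interferon-stimulated genes used here for comparison. TTTGAA, the letters of a cell cycle element known from G2/M genes, was in 15.2% of all promoters, in 10 of 16 promoters of G2/M genes and in 0 places of the *APOBEC3H* promoter, on either strand. The windows show letters only and say nothing of which factors bind.

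*APOBEC3B*, the nuclear member and the one tied to cell division, had the highest listed values of the 6 members analysed. The 6 normalized values were 33.1, 29.1 and 32.2 across the controls, against 31.9, 26.3 and 28.3 after knockdown. The groups overlapped, with knockdown replicate 1 inside the range of the controls and replicates 2 and 3 below it. The mean was 31.5 ± 2.12 in the controls and 28.8 ± 2.86 after knockdown (SD, n = 3 each). By limma the log2 change was -0.13 ± 0.11 (SE, adjusted p = 0.369), with a 95% interval from -0.37 to 0.12, and a two-sided exact permutation test gave p = 0.2, where 3 libraries against 3 cannot go below 0.1. On the scale of value + 1 the interval reaches from 0.774-fold to 1.09-fold. Between 1518 and 2672 reads per library stood behind these values. Exons of the antisense gene *APOBEC3B-AS1* cover 12.9% of those of *APOBEC3B*, and since the default counting does not use strand, reads there cannot be told apart. *APOBEC3B-AS1* itself was listed with 2 to 13 reads.

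*APOBEC3A*, known for strong deaminase activity and for its rise with interferon in myeloid cells and keratinocytes, had values of 3.75, 4.08 and 4.21 across the controls, against 4.12, 2.96 and 4.42 after knockdown. The highest and the lowest of the 6 libraries were both *DUSP6* siRNA libraries. The mean was 4.01 ± 0.236 (SD, n = 3) and 3.83 ± 0.772 (SD, n = 3), and the log2 fold change was -0.06 (95% interval -0.38 to 0.25, limma adjusted p = 0.730, exact permutation p = 0.9). Without *DUSP6* siRNA replicate 2 it was 0.07. No rise beyond 1.19-fold on the scale of value + 1 lay within the interval.

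*APOBEC3D* and *APOBEC3F*, a pair of HIV-restricting members that act in the cytoplasm, had all 3 knockdown values below the lowest control. *APOBEC3D* was 3.29, 3.47 and 2.30 across the controls, against 1.98, 1.88 and 2.24 after knockdown. The third control lay close to the *DUSP6* siRNA libraries, and the gap to the nearest of them was small. The mean of *APOBEC3D* was 3.02 ± 0.628 in the controls and 2.03 ± 0.184 after knockdown (SD, n = 3 each). It fell by 0.39 on the log2 scale (SE 0.14, 95% interval -0.71 to -0.08, limma adjusted p = 0.0447, exact permutation p = 0.1). The adjusted p stood close to the threshold of 0.05, and leaving out a single library ended the call in 5 of 6 cases, with 0.117 without scrambled siRNA replicate 1, 0.121 without scrambled siRNA replicate 2 and 0.121, 0.134 and 0.0781 without *DUSP6* siRNA replicates 1, 2 and 3. The separate value of *APOBEC3D* is also uncertain, because 83.2% of its exon bases belong in GENCODE to a second gene, ENSG00000284554, which spans *APOBEC3C* and *APOBEC3D*.

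*APOBEC3F* was 3.02, 2.68 and 2.53 across the controls, against 2.53, 1.87 and 2.47 after knockdown. The lowest control and *DUSP6* siRNA replicate 1 were nearly equal, and the other two *DUSP6* siRNA libraries were below both. The mean was 2.74 ± 0.250 (SD, n = 3) and 2.29 ± 0.364 (SD, n = 3), and the log2 fold change of -0.19 (95% interval -0.47 to 0.09) was not called (limma adjusted p = 0.236, exact permutation p = 0.1).

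*APOBEC3C* and *APOBEC3G* were listed with few or no reads. *APOBEC3C*, a single-domain member, was listed with 0 reads in 5 libraries and 1 read in *DUSP6* siRNA replicate 3. A count of 0 allows a normalized value of up to 0.0362 to 0.0607, depending on the library and for counting error only. The gene models used for counting were not used here, and whether the count of *APOBEC3C* reflects the level of its RNA was not tested. A share of 0.6% of the exon bases of *APOBEC3C* is shared with another annotated gene, the same ENSG00000284554. *APOBEC3G*, the best studied HIV restriction factor of the family, was found with 4, 2 and 3 reads across the controls, against 2, 1 and 3 reads after knockdown. The groups overlapped, and from 9 against 6 reads the ratio of *DUSP6* siRNA to scrambled siRNA was 0.689, with an exact 95% interval from 0.202 to 2.17 that covers counting error only. Neither gene reached the mean value of 1 needed for the test.

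**Figure D1:**
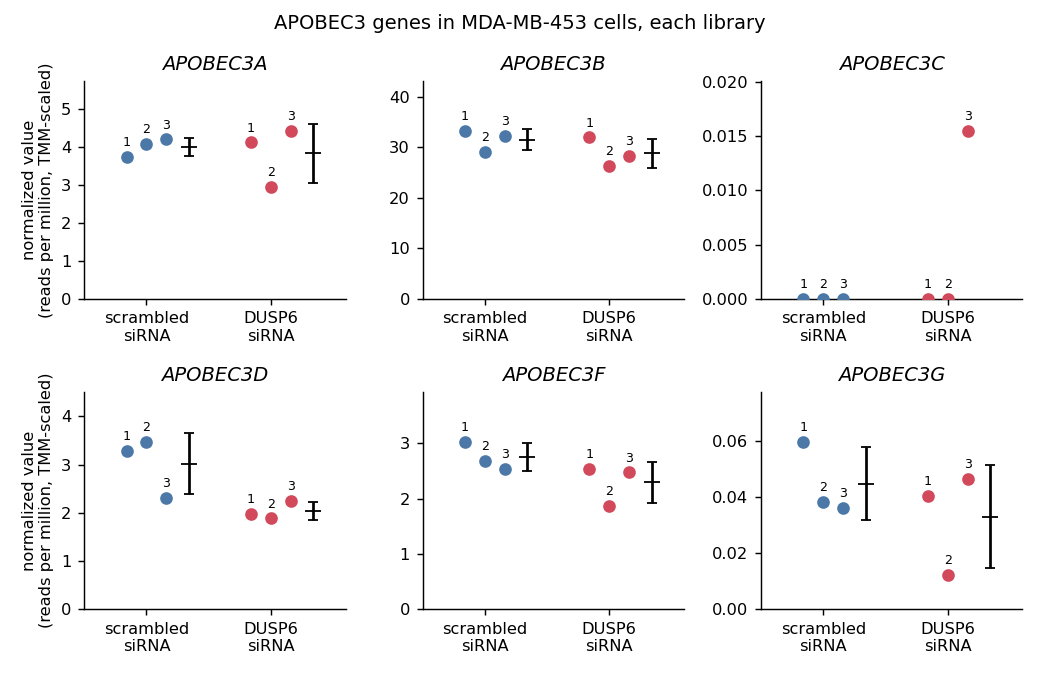
Normalized value (reads scaled by TMM, linear axes from 0) of 6 *APOBEC3* genes in each library, with replicate numbers at the points and the mean ± SD of 3 libraries in black (not drawn for *APOBEC3C*, at 0 in 5 libraries). The groups overlap for *APOBEC3A* and *APOBEC3B* and are apart for *APOBEC3D*. For *APOBEC3F* the lowest control (2.531) and the highest knockdown value (2.527) nearly coincide, while *APOBEC3G* stays at 4 reads or fewer.

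Of the 7 members, 4 were thus tested, 0 were called higher and 1 was called lower by limma (adjusted p under 0.05). Over all 12862 genes tested, 44.5% were called, 19.7% higher and 24.7% lower. The groups did not overlap, with *DUSP6* siRNA lower, for 2 of the 4 members and for 31.1% of all genes tested, and with *DUSP6* siRNA higher for 0 members and 26.7% of all genes. By edgeR on the recovered reads, 1 of the 4 was called, again *APOBEC3D* as lower, where 44.3% of all genes were called and 25.2% called lower. The median log2 fold change was -0.16 for the 4 members and -0.01 for all genes tested, and 62.2% of the genes tested had an absolute log2 fold change no larger than that of *APOBEC3D*. The share of members called lower was thus close to the background.

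Among the libraries, *DUSP6* siRNA replicate 2 had the lowest value of all 6 for *APOBEC3A*, *APOBEC3B*, *APOBEC3D*, *APOBEC3F* and *APOBEC3G*. The mean of log2(value + 1) over the 4 tested members was 2.45 in that library and between 2.70 and 2.86 in the others. The same library had the lowest mean of log2(value + 1) of the interferon-stimulated genes among the *DUSP6* siRNA libraries, 7.10 against 7.59 and 7.64, while the controls stood between 1.31 and 2.24. Over the 6 libraries the log2 values of *APOBEC3B* and *APOBEC3F* had a Pearson correlation of 0.80, those of *APOBEC3D* and *APOBEC3F* 0.76, those of *APOBEC3A* and *APOBEC3F* 0.64, and the remaining 3 pairs between 0.24 and 0.49. These 6 points share their libraries and scaling, and the values are given as a description.

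To compare levels between members, the normalized value was divided by the exon length in kilobases. The count of *APOBEC3C* was taken as listed, and whether it reflects the level of its RNA was not tested. With scrambled siRNA the level per kilobase was 16.6 ± 1.12 for *APOBEC3B*, 1.99 ± 0.117 for *APOBEC3A*, 1.19 ± 0.248 for *APOBEC3D*, 0.526 ± 0.0480 for *APOBEC3F* and 0.00831 ± 0.00240 for *APOBEC3G* (SD, n = 3), with *APOBEC3C* listed at 0. With *DUSP6* siRNA the order of the first 5 was the same, at 15.2 ± 1.51, 1.91 ± 0.384, 0.805 ± 0.0729, 0.439 ± 0.0698 and 0.00614 ± 0.00339 (SD, n = 3). Over the 6 libraries the ranges of neighbors in this order did not overlap, except for *APOBEC3G* and *APOBEC3C*, which cannot be ordered at this depth. *APOBEC3B* made up 81.6% ± 1.75 of the level per kilobase summed over the 6 members analysed in the controls and 82.8% ± 1.92 after knockdown (SD, n = 3 each), and the groups overlapped (exact permutation p = 0.5). *APOBEC3A* followed with 9.84% ± 0.935 and 10.3% ± 1.48, and *APOBEC3D* with 5.89% ± 1.35 and 4.40% ± 0.467 (SD, n = 3, exact permutation p = 0.7 and 0.3). The summed level was 21.2, 19.3 and 20.5 across the controls, against 20.2, 16.4 and 18.5 after knockdown (exact permutation p = 0.2). The place of *APOBEC3D* depends on the length used. In a second version the same full values were divided only by the exon length that no other annotated gene covers. The share of *APOBEC3D* was then 24.7% with scrambled siRNA and 19.5% with *DUSP6* siRNA, ahead of *APOBEC3A*, and that of *APOBEC3B* was 66.5% and 71.0%. Reads on the covered bases were not taken out, so these shares hold only if such reads had not been counted, which was not tested.

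**Figure D2:**
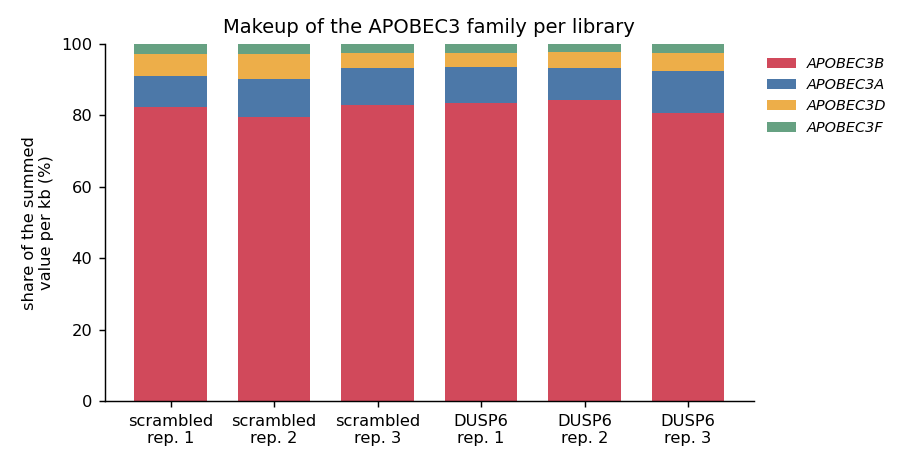
Share (%) of each of the 6 members analysed in the summed normalized value per kilobase of exon, by library. *APOBEC3G* and *APOBEC3C* are too small to see, with *APOBEC3C* taken at its listed count. *APOBEC3B* takes between 79.6% and 84.3% in every library of either group.

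Because *APOBEC3B* is known for a different control than the others, its change was set against theirs. The log2 difference between *APOBEC3A* and *APOBEC3B* was -2.85, -2.57 and -2.67 across the controls, against -2.68, -2.79 and -2.43 after knockdown, and the fold changes of both genes differed by 0.06 (95% interval -0.28 to 0.40). *APOBEC3D* had a difference of -0.27 from *APOBEC3B* (95% interval -0.61 to 0.07), and *APOBEC3F* had a difference of -0.07 (95% interval -0.40 to 0.27). In all 3 pairs the groups overlapped, and the exact permutation p was 0.7, 0.3 and 0.5, or 0.7 for each when adjusted over the 3 pairs. The intervals leave room for differences of either sign and for none. All of these are on the scale of log2(value + 1), where adding 1 shrinks the changes of the lower members more than that of *APOBEC3B*. With 0.1 added instead, the log2 fold changes were -0.08 for *APOBEC3A*, -0.53 for *APOBEC3D*, -0.26 for *APOBEC3F* and -0.13 for *APOBEC3B*. The differences between members were not tested on that scale.

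Genes that carry the interferon signal rose in the same libraries. Of 12 interferon-stimulated genes, 12 were called higher and 0 lower, with a median log2 fold change of 6.16 and a smallest one of 1.22, that of the GTPase gene *MX1*. *IFIT1* was 4.58, 3.81 and 12.6 across the controls, against 1043, 986 and 1096 after knockdown, 7.19 on the log2 scale by limma (adjusted p = 1.51e-06). *IFI6* (7.56) and *OASL* (6.37) also rose, with the value of *IFI6* uncertain because another gene covers 23.1% of its exons. Of 11 tested genes of interferon signalling, 8 were higher and 0 lower, among them the transcription factor genes *IRF9* (log2 fold change 3.70), *IRF7* (2.71) and *STAT2* (1.51). Exons of other genes cover 27.2% of those of *IRF9*, so its value is uncertain. The upper ends of the 95% intervals of the 4 tested *APOBEC3* genes, between -0.08 and 0.25, all lay below 0.94, the lower end for *MX1*.

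Cell cycle genes were lower. For these and the lists that follow, the background over all genes tested was 19.7% called higher and 24.7% lower. Of 18 G2/M genes, 14 were lower and 0 higher, with a median log2 fold change of -0.53, and the largest decreases were in the proliferation marker *MKI67* (-1.17), the mitotic cyclin *CCNB2* (-1.07) and the mitotic kinesin *KIF20A* (-0.95). The G2/M genes ranged from -1.17 to -0.12, with 4 not called, and the -0.13 of *APOBEC3B* lay within this range. Of 17 genes for E2F, RB family, MuvB and PRC1.6 proteins, which include the known repressors and activators of *APOBEC3B*, 7 were lower and 2 higher, and 8 were not called. The lower ones included *E2F1* (-1.32), *MYBL2* (-1.21), which encodes the B-MYB partner of MuvB, and *FOXM1* (-1.13), whose value is uncertain because *ITFG2* covers 15.9% of its exons. The higher ones were the repressor *E2F6* (0.59) and the MuvB subunit *LIN37* (0.58), with 54.0% of the exon bases of *LIN37* shared with other genes. Without *DUSP6* siRNA replicate 1 the list had 4 lower genes, and without *DUSP6* siRNA replicate 2 it had 1 higher gene. With quantile normalization it had 4 higher genes. *E2F4*, the main E2F of the repressive DREAM complex, had a log2 fold change of -0.04 and was not called (limma adjusted p = 0.788). Of 12 NF-kB pathway genes, 5 were higher and 1 lower. The higher ones included *BIRC2* (0.65) and the precursor gene *NFKB1* (0.59), and the lower one was the adaptor *TRAF2* (-0.38). *TRAF2* lost its call when any 1 of the *DUSP6* siRNA libraries was left out, and 3 genes were higher without *DUSP6* siRNA replicate 3. With quantile normalization 0 NF-kB pathway genes were lower, and with a filter at a mean of 10, 3 were higher. *RELB*, the subunit through which non-canonical NF-kB is known to induce *APOBEC3B*, rose from a mean value of 4.22 to 8.99, 0.93 on the log2 scale by limma (adjusted p = 3.83e-04), while *MAP3K14*, the kinase upstream of it, had a log2 change of -0.10 by limma (adjusted p = 0.540). Another gene covers 15.1% of the exon bases of *MAP3K14*, so its value is uncertain.

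**Figure D3:**
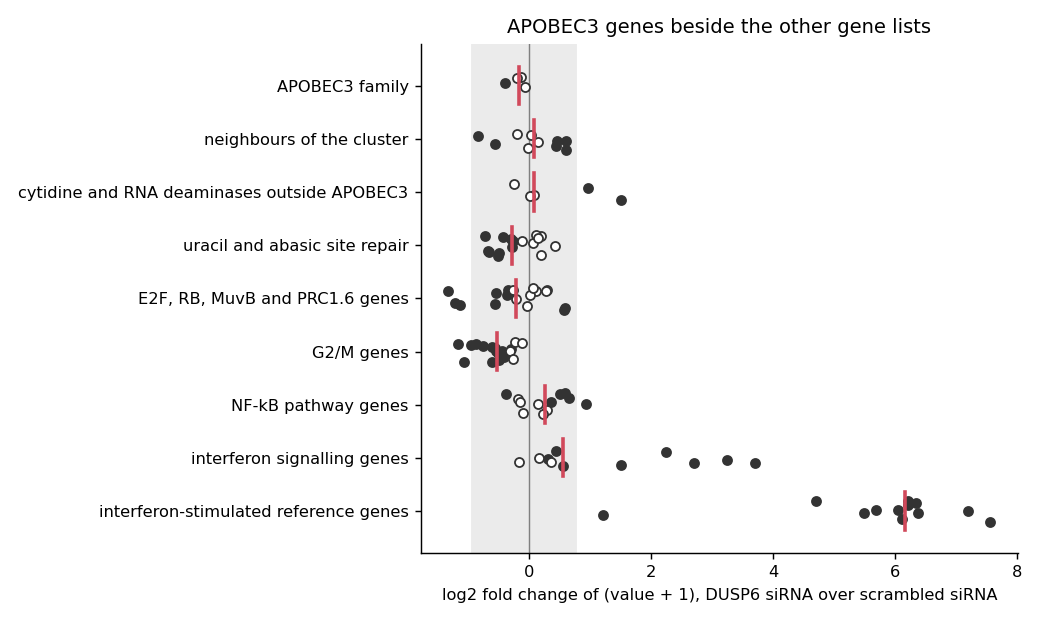
Log2 fold change of value + 1 (*DUSP6* siRNA over scrambled siRNA) of each tested gene, by list. Filled points have a limma adjusted p under 0.05, red bars mark the median of a list, the gray band spans the 5th to 95th percentile of all genes tested (-0.93 to 0.77), and vertical scatter within a list has no meaning. The 4 *APOBEC3* genes lie between -0.39 and -0.06, inside the band, while the interferon-stimulated genes lie between 1.22 and 7.56.

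Deaminases outside the family, listed together with related proteins and cofactors, were read in the same fit. Of 14 listed genes, 12 were analysed and 5 tested, with 2 higher and 0 lower. Over all genes tested, 19.7% were called higher and 24.7% lower. *ADAR*, which edits adenosine in double-stranded RNA and is itself interferon-inducible, had a mean of 450 ± 36.5 in the controls and rose to 1285 ± 30.8 (SD, n = 3 each), 1.51 on the log2 scale by limma (adjusted p = 9.47e-06). *CDADC1*, a cytidine deaminase domain protein, rose from 10.0 to 20.3, 0.97 on the log2 scale by limma (adjusted p = 0.00333). *RBM47*, an RNA-binding cofactor of the APOBEC1 editing enzyme, had a log2 change of -0.25 by limma (adjusted p = 0.306). *APOBEC2*, a relative outside the cluster, was under the filter, with mean values of 0.254 in the controls and 0.259 after knockdown.

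Uracil left by deamination is cut out by UNG and further repaired by base excision. Of 16 genes of uracil and abasic site repair, 9 were lower and 0 higher. Over all genes tested, 24.7% were called lower and 19.7% higher. *UNG* fell from 79.6 to 55.7, -0.49 on the log2 scale by limma (adjusted p = 0.0153). The largest decreases were in the ligase gene *LIG1* (-0.72), the flap nuclease gene *FEN1* (-0.67) and *PARP1* (-0.65), of which *LIG1* and *FEN1* also serve DNA replication. *SMUG1*, a second uracil glycosylase, had a log2 change of 0.42 by limma (adjusted p = 0.0607), and *HMCES*, which shields abasic sites in single-stranded DNA, had a change of -0.12 (limma adjusted p = 0.409). The median over the 16 genes was -0.27. The number of lower genes was 5 without scrambled siRNA replicate 1 and 4 without *DUSP6* siRNA replicate 2 or 3, and without scrambled siRNA replicate 3 there were 3 higher genes. With quantile normalization 5 genes were lower and 2 higher, and with DESeq2 8 were lower and 2 higher. Without the filter on low values 7 were lower and 1 higher, and with a replicate block 6 were lower and 1 higher.

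The genes flanking the cluster did not share a direction. Of the 5 protein-coding genes on each side, all 10 were tested, 4 were higher and 2 lower. Over all genes tested, 19.7% were called higher and 24.7% lower. On the side of *APOBEC3A*, the Polycomb gene *CBX6*, 80.5 kb away, had a log2 change of 0.44 by limma (adjusted p = 0.0243), and *NPTXR* (0.61), *DNAL4* (0.60) and *GTPBP1* (0.46) were also higher. *SUN2*, a nuclear envelope protein on that side, was lower (-0.55). *SUN2* and *GTPBP1* share 24.5% and 14.2% of their exon bases with other genes, so their values are uncertain. On the side of *APOBEC3H*, the Polycomb gene *CBX7*, 16.1 kb away, had a log2 fold change of -0.02 (95% interval -0.29 to 0.26, limma adjusted p = 0.926), and the growth factor gene *PDGFB* fell by 0.83 on the log2 scale (limma adjusted p = 2.55e-04). Other genes cover 21.6% of the exon bases of *CBX7*, so its value is uncertain.

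**Figure D4:**
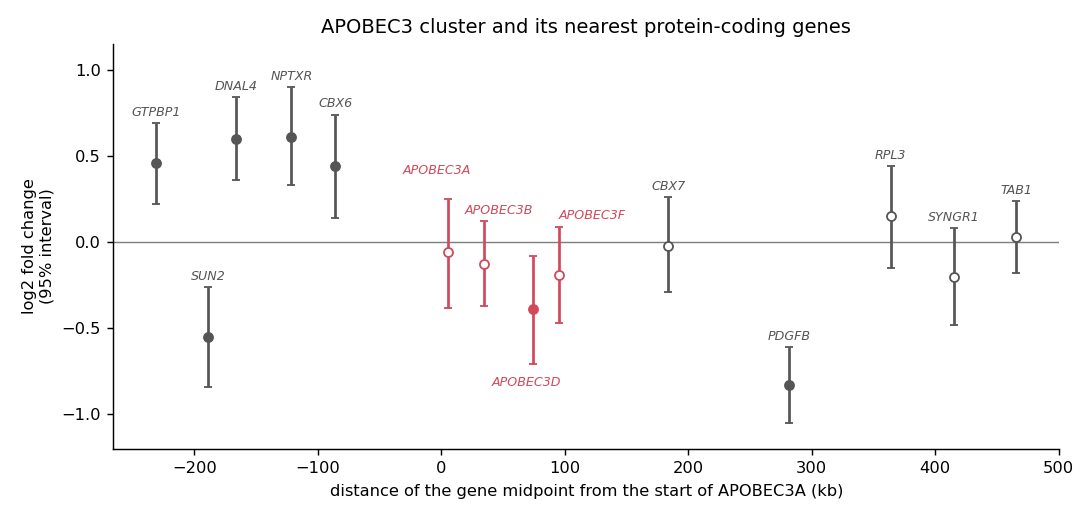
Log2 fold change of value + 1 (*DUSP6* siRNA over scrambled siRNA) with its 95% limma interval against the distance of the gene midpoint from the start of *APOBEC3A* in kilobases, with the *APOBEC3* genes in red and filled points at a limma adjusted p under 0.05. The 4 tested *APOBEC3* genes lie between -0.39 and -0.06, and the 10 flanking genes between -0.83 and 0.61.

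The genes whose log2 values ran most like those of *APOBEC3B* over the 6 libraries were *XRCC3* (Pearson r = 0.966), a gene of homologous recombination, *FOS* (0.965), an AP-1 subunit, *ZNF786* (0.951), *SPHK1* (0.951), a sphingosine kinase, and *PIMREG* (0.944). None of these 5 was called, with log2 fold changes from -0.51 for *FOS* to -0.14 for *ZNF786* and limma adjusted p between 0.0971 for *PIMREG* and 0.313 for *ZNF786*. For *APOBEC3A*, the member with the next highest mean normalized value, they were *NPIPA2* (0.968), *TMEM81* (0.950), *OSGIN1* (0.950), *CCDC167* (0.948) and *MAP3K14* (0.942), with log2 fold changes between -0.10 for *MAP3K14* and 0.00 for *OSGIN1*. *NPIPA2* has near-identical copies, so its value is uncertain. With 6 libraries and 12862 genes, correlations of this size are a description.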

How the data were processed

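RNA of 6 MDA-MB-453 libraries was prepared with a stranded mRNA kit. Rsubread 2.0.0 served the authors for alignment to hg38 and, at default settings, for assignment to RefSeq gene models. They deposited 1 normalized signal value per gene and library, with edgeR named in their processing notes. Divided by the step of its library, 100% of values came within 1e-04 of a whole number, so the reads could be recovered, and TMM factors computed from them (0.881 to 0.968 in the controls, 1.08 to 1.09 after knockdown) gave back every step. Values were taken as log2(value + 1). A mean of 1 or more over the 6 libraries was required, which left 12862 genes for limma 3.58.1 in R 4.3.3 (trended eBayes). Benjamini-Hochberg adjustment covered all of these, and an adjusted p under 0.05 made a call. Adding 1 makes the fold changes of low genes smaller. Single values were compared by two-sided exact permutation tests over the 6 libraries, with a smallest p of 0.1. Gene lengths and overlaps came from GENCODE v44, which differs from the annotation used for counting.

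The members, lists and tests were chosen with earlier results of these data known. All members were named, with up to 3 called genes per list and direction, and the 5 genes most correlated with *APOBEC3B* and *APOBEC3A*. Further list genes, named for their role, were chosen after their values were seen. Some genes of the lists are counted but not reported here by name. limma and edgeR were tested on simulated data. The alternatives were another pseudocount, other filters, quantile normalization, scaling by the median of ratios, untrended eBayes, a block for the replicate number, each library left out, and edgeR 4.0.16 (quasi-likelihood) and DESeq2 1.42.0 on the recovered reads. The rows of 349 genes without a symbol stayed in the fit.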

Additional observations from a re-analysis of the deposited data

How the results depend on the processing

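Under the 15 alternatives, 0 *APOBEC3* members were called higher. *APOBEC3D* was called lower in 6 of the 14 fits that tested it. The call was lost with no filter on low values (log2 fold change -0.39, adjusted p = 0.0992) and with DESeq2 (-0.54, adjusted p = 0.0520). In both fits the cause was not tested. With a replicate block the call was also lost (-0.39, adjusted p = 0.0538), leaving 0 members lower. Over all genes tested, deviations from the group means had correlations of 0.01, 0.09 and -0.08 between libraries with the same replicate number. These values cannot settle whether the replicate numbers pair the libraries, since single genes could still follow them. In these 3 fits, and with a filter at a mean of 10, which *APOBEC3D* does not reach, 0 members were lower. Leaving out 1 library at a time, the log2 fold change of *APOBEC3D* ranged from -0.53 to -0.31 and the number of lower members from 0 to 1. It was -0.53 with a pseudocount of 0.1 and -0.56 with edgeR (adjusted p = 0.0462). For *APOBEC3A* the leave-one-out range was -0.15 to 0.07, and *APOBEC3B* stayed between -0.20 and -0.06 and *APOBEC3F* between -0.32 and -0.10 over all their alternatives, with no call. Every alternative scaled the libraries beyond their number of reads. The TMM factors of the groups did not overlap (0.881 to 0.968 in the controls, 1.08 to 1.09 after knockdown). A fit without such scaling was not run, so its effect on the direction of these small changes was not tested. A filter at a mean of 10 gave 1639 higher genes among the fewer tested, and without single libraries the number ranged from 1574 (without *DUSP6* siRNA replicate 2) to 3183. The share of *APOBEC3B* among the 6 members analysed was 66.5% and 71.0% when full values were divided by the exon length that no other gene covers. Reads on covered bases were not taken out for this. *DUSP6* kept its call in all 15 fits. *APOBEC3C* and *APOBEC3G* had 1 and 15 reads in all libraries together, too few for a comparison between the groups.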
